A study of Mus musculus with 12 samples.

Results

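Csf1r, Cx3cr1 and Gpnmb were followed by name through RNA sequencing libraries of mouse kidney. They are 3 of the 16383 genes in the deposited table, and all 3 passed the filter on low counts that left 5048 genes for testing. The 12 libraries fall into 4 groups of 3: KO I/R, KO sham, WT I/R and WT sham. I/R stands for ischemia of the left kidney for 30 min followed by reperfusion, with removal of the other kidney, and the sham groups had that surgery, nephrectomy included, without ischemia. WT is wild type and KO is the group labelled as a knockout of Lrrk2, which encodes leucine-rich repeat kinase 2. The sources used here do not give the kind of knockout allele, the strain, age or sex of the mice or the reperfusion time. Whether libraries came from separate animals is not stated in the labels, so p-values measure the spread between these libraries, which may be technical.

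Tissue macrophages of the kidney live between the tubules, survive on signals through the CSF1 receptor and clear debris. Csf1r encodes that receptor, a tyrosine kinase of monocytes and macrophages that binds the cytokines CSF1 and IL34. Cx3cr1 encodes the receptor for fractalkine, the membrane-bound chemokine made from Cx3cl1, and marks resident macrophages, dendritic cells and patrolling monocytes. Gpnmb encodes a transmembrane glycoprotein that is induced in macrophages loaded with lipid or debris, under the MiT/TFE family of lysosomal transcription factors, and is also made by melanocytes and osteoclasts. After I/R, Csf1r and Cx3cr1 were lower than after sham surgery in both genotypes. Gpnmb was higher in WT I/R kidneys, and in KO I/R kidneys its rise passed the test with 1 version of the values of library KO I/R 2 and missed it with the other. No difference between KO and WT passed the test for any of the 3 genes. All libraries are of whole kidney, so fewer cells of a type and less RNA per cell cannot be told apart.

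The libraries held between 4678827 and 5456261 counts in the table, and 3 of them need a word before the results. In KO I/R 2 the deposited counts and FPKM values (a level per transcript length and library size, the unit used here to compare genes) did not match: 936 genes had a count of 0 with an FPKM above 0, and 533 the reverse. The FPKM column of KO I/R 2 gave whole reads for 100% of 5789 values checked within a tolerance of 0.05 reads, and these recovered reads are used as a second version of that library. In the other 11 libraries both columns matched. KO sham 3 had 24.7% of its counts in mitochondrial genes, against 5.64% to 10.7% in the other libraries. KO sham 1 stood apart in several injury genes. Havcr1, the tubular injury marker KIM-1, had 1427 counts there, against 17 and 4 in KO sham 2 and 3. The KO sham 1 to 3 counts of Lcn2 were 769, 34 and 63, and those of Gdf15 were 986, 85 and 94. Without KO sham 1, the Havcr1 log2 fold change of KO I/R over KO sham was 11.6 in place of 6.50. The same library held the highest KO sham counts of Cx3cr1 and Gpnmb, so the KO results of these genes are given with and without it, and the part of its injury genes in them was not tested. Lrrk2 itself was counted in every library labelled KO. Its counts were 401, 235 and 793 in KO I/R 1 to 3 and 598, 1651 and 207 in KO sham 1 to 3, against 320, 381 and 464 in WT I/R 1 to 3 and 2053, 1284 and 1839 in WT sham 1 to 3. KO sham 2 thus lay within the WT sham range, and every statement on genotype rests on the labels alone. As a check of the tissue, all 8 kidney tubule and glomerulus genes held in the table, of 20 listed, were counted in every group, and their summed level was 8861 to 11715 table CPM (scaled to the table total, without TMM factors) in KO I/R, 8486 to 16992 in KO sham, 12045 to 13126 in WT I/R and 14020 to 18394 in WT sham.

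The 250 bases upstream of the RefSeq start are shown for Cx3cr1, which fell, and for Gpnmb, which rose, since they are the pair of genes that moved in opposite directions and both lie where sequence can be shown (RefSeq, GRCm38.p6). The stretch for Cx3cr1 is chr9:120068297-120068546 on the minus strand and lies inside the longer GENCODE locus, and that for Gpnmb is chr6:49036268-49036517 on the plus strand. Capitals mark each E-box core CANNTG, the general binding sequence of basic helix-loop-helix factors, of which the MiT/TFE factors of the lysosome are a subgroup.
Cx3cr1: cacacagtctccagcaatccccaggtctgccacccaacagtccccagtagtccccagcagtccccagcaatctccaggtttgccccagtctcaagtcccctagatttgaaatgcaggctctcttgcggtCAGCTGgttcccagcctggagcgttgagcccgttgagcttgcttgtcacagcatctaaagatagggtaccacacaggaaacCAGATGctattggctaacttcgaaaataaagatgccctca
Gpnmb: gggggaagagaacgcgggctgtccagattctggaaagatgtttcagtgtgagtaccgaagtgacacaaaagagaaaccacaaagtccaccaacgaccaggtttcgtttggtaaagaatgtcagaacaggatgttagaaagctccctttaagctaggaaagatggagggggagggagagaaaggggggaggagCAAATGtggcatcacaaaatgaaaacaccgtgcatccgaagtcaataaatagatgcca
Cx3cr1 held 2 such cores and Gpnmb held 1, and 66.2% of the 32851 upstream stretches of the same length in the RefSeq table held at least 1. The stricter E-box CACGTG was in neither stretch and in 6.02% of all of them. The letters GAGGAA, a core of the macrophage factor PU.1, were in neither stretch and in 23.3% of all of them. All motifs were searched on both strands, CACGTG is itself a CANNTG, and a missing match says only that these letters are not in these stretches.

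By their loci in the table, which match GENCODE release M21 on GRCm38, Csf1r (ENSMUSG00000024621) lies on the plus strand at chr18:61100598-61132149, Cx3cr1 (ENSMUSG00000052336) on the minus strand at chr9:119901616-120069879 and Gpnmb (ENSMUSG00000029816) on the plus strand at chr6:49036546-49070929. Csf1r has 6 annotated transcripts, Cx3cr1 has 3 and Gpnmb has 5. The exons of Csf1r share 873 bases, 15.1% of their length, with exons of Hmgxb3 on the opposite strand, and those of Cx3cr1 share 78 bases, 1.73%, with the antisense gene Gm33858. Gpnmb shares no exon with another gene. The sources used here do not say whether the authors' counting used strand, so reads over the shared bases of Csf1r and Cx3cr1 cannot be assigned with certainty.

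Csf1r, the most abundant of the 3 genes in every library, was lower in all 6 I/R libraries than in any sham library. In CPM (counts per library size, scaled with TMM factors), it stood at 42.6, 97.4 and 54.7 in KO I/R 1 to 3, against 177, 204 and 279 in KO sham 1 to 3. The recovered reads gave KO I/R 2 a Csf1r level of 44.8 CPM, from 236 reads in place of 405 counts, which placed it between the other KO I/R libraries. The Csf1r level was 61.6, 70.0 and 50.2 CPM in WT I/R 1 to 3, against 207, 173 and 191 CPM in WT sham 1 to 3. The I/R and sham groups did not overlap in either genotype, as for 35.3% of all tested genes in KO and 55.2% in WT. The highest I/R library was KO I/R 2 as deposited. Mean Csf1r was 64.9 ± 28.8 CPM in KO I/R (47.6 ± 6.57 with recovered reads) and 220 ± 52.8 CPM in KO sham (SD, n = 3 each). The means were 60.6 ± 9.97 CPM in WT I/R and 191 ± 17.1 CPM in WT sham (SD, n = 3 each).

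Csf1r was 3.39-fold lower in KO I/R than in KO sham, a log2 fold change of -1.76 (SE 0.31, adjusted p = 0.00266, edgeR quasi-likelihood test, Benjamini-Hochberg over 5048 genes). With the recovered reads it was 4.64-fold lower in KO I/R than in KO sham, a log2 fold change of -2.21 (SE 0.22, adjusted p = 7.91e-05). Between the WT groups Csf1r was 3.15-fold lower in WT I/R than in WT sham, a log2 fold change of -1.65 (SE 0.31, adjusted p = 0.00363). Without KO sham 1 the KO value of Csf1r was -1.89 (adjusted p = 0.00368). Csf1r passed the test in both genotypes under each of the 27 other settings run, which included leaving out each of the 12 libraries in turn. The background of such calls was high: of all tested genes, 23.5% passed the test between KO I/R and KO sham, with 11.9% higher and 11.5% lower, and 20.9% between WT I/R and WT sham, with 10.2% higher and 10.7% lower. Between WT I/R and WT sham the calls split into 517 higher and 540 lower, and with whole-library totals in place of TMM into 638 and 326, while the median of all genes moved by 0.14 on the log2 scale and Csf1r stayed at -1.61 relative to that median in both.

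**Figure D1:**
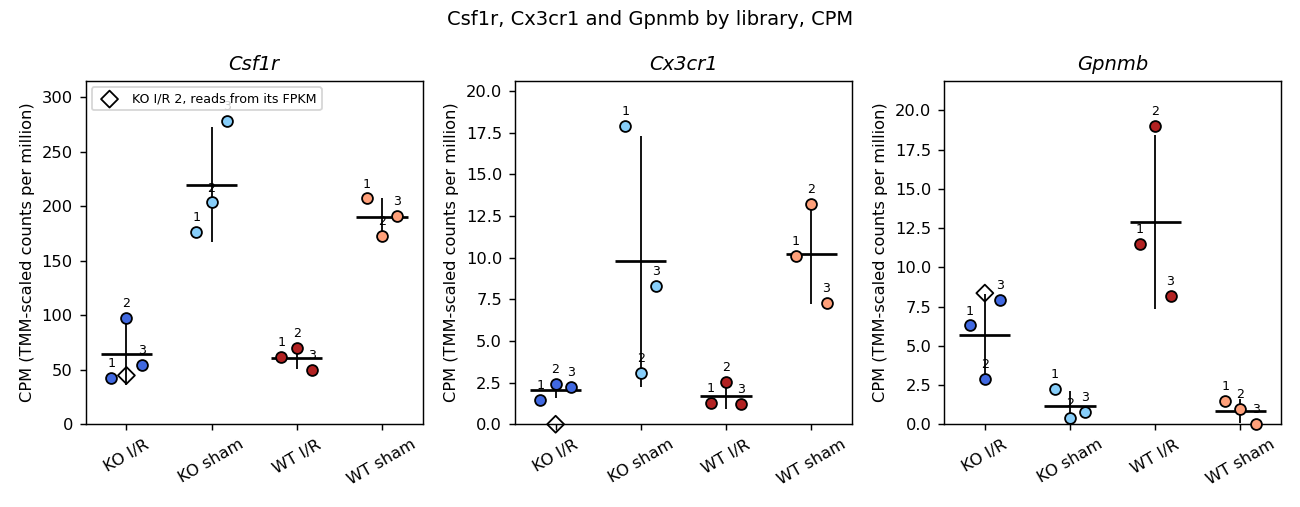
CPM of Csf1r, Cx3cr1 and Gpnmb (1 panel each, y axis in TMM-scaled CPM) in the 12 libraries, numbered 1 to 3 within each group on the x axis. Horizontal bars are means and vertical bars SD over 3 libraries, and the open diamond is KO I/R 2 with reads recovered from its FPKM. Csf1r and Cx3cr1 sit lower in each I/R group than in its sham group, from 42.6 to 97.4 CPM against 173 to 279 CPM for Csf1r, and Gpnmb sits higher, with its highest library WT I/R 2 at 19.0 CPM.

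Cx3cr1 was a low gene, and its counts limit what can be said. It had 8, 10 and 12 counts in KO I/R 1 to 3, against 111, 16 and 31 in KO sham 1 to 3, and the recovered reads put KO I/R 2 at 0. WT I/R 1 to 3 held 7, 14 and 7 counts of Cx3cr1, against 48, 66 and 37 in WT sham 1 to 3. Every I/R library was below every sham library, but KO sham was uneven, with KO sham 1 far above the other KO sham libraries. Its mean level was 2.03 ± 0.49 CPM in KO I/R (1.24 ± 1.14 with recovered reads) and 9.77 ± 7.51 CPM in KO sham (SD, n = 3 each). The WT I/R mean was 1.69 ± 0.76 CPM, against 10.2 ± 2.97 CPM in WT sham (SD, n = 3 each).

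Cx3cr1 was 4.81-fold lower in KO I/R than in KO sham, a log2 fold change of -2.27 (SE 0.60, adjusted p = 0.0192, edgeR). With recovered reads for KO I/R 2 it was 7.81-fold lower, -2.97 on the log2 scale (SE 0.83, adjusted p = 0.0202). The KO call depended on single libraries, among them KO sham 1, the sham library high in Havcr1 and Lcn2: the log2 fold change was -1.46 (adjusted p = 0.0894) without KO sham 1 and -2.08 (adjusted p = 0.0693) without KO I/R 1, and without KO sham 1 and 3 together, which leaves 1 sham library assumed to vary like the other groups, it was -0.59 (adjusted p = 0.549). Cx3cr1 in WT I/R was 5.99-fold lower than in WT sham, -2.58 on the log2 scale (SE 0.61, adjusted p = 0.0118). That call was lost by a small margin without WT I/R 1 (-2.42, adjusted p = 0.0577) or WT I/R 3 (-2.39, adjusted p = 0.0526).

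Gpnmb moved the other way. It had 34, 12 and 43 counts in KO I/R 1 to 3, against 14, 2 and 3 in KO sham 1 to 3. The recovered reads gave KO I/R 2 a Gpnmb count of 44, near the other KO I/R libraries. WT I/R 1 to 3 held 63, 104 and 47 counts of Gpnmb, against 7, 5 and 0 in WT sham 1 to 3, and the count of 0 allows a level of up to 0.641 table CPM in WT sham 3 (3 counts, for counting error only). WT I/R 2 was highest, WT sham 3 lowest, and after scaling to CPM the I/R and sham libraries did not overlap in either genotype. Mean Gpnmb was 5.71 ± 2.58 CPM in KO I/R (7.57 ± 1.07 with recovered reads) and 1.15 ± 0.98 CPM in KO sham (SD, n = 3 each). Gpnmb averaged 12.9 ± 5.55 CPM in WT I/R, against 0.83 ± 0.75 CPM in WT sham (SD, n = 3 each).

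In KO I/R the Gpnmb log2 fold change over KO sham was 2.24 (SE 0.79, 95% interval 0.52 to 3.96), and its adjusted p of 0.0590 (edgeR) missed the threshold of 0.05. With the recovered reads for KO I/R 2 Gpnmb was 6.16-fold higher in KO I/R than in KO sham, 2.62 on the log2 scale (SE 0.73), and passed the test (adjusted p = 0.0191). It also passed with the counts as deposited in DESeq2 (adjusted p = 0.0167), without KO sham 1 (3.27 on the log2 scale, adjusted p = 0.0368), the same sham library high in Havcr1 and Lcn2, and without WT sham 3 (2.24, adjusted p = 0.0314). Gpnmb in WT I/R was 15.4-fold higher than in WT sham, 3.94 on the log2 scale (SE 0.83, adjusted p = 0.00663), and it passed the test in every setting run; without WT sham 1 the log2 fold change was 4.63 (adjusted p = 0.0165). In CPM, I/R and sham libraries did not overlap for any of the 3 genes in either genotype; the same held for 35.3% of all tested genes between KO I/R and KO sham and for 55.2% between WT I/R and WT sham.

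Per unit of length, the balance of the 3 genes differed between I/R and sham kidneys. The FPKM level of Csf1r was 1.79, 1.77 and 2.37 in KO I/R 1 to 3, against 8.08, 8.44 and 7.71 in KO sham 1 to 3. In WT I/R 1 to 3 the FPKM level of Csf1r was 2.65, 2.98 and 2.13, against 7.68, 6.50 and 7.96 in WT sham 1 to 3. KO I/R 2 was not the highest I/R library here, but its FPKM column differs from its counts, and the recovered reads also put it at 44.8 CPM. On the FPKM scale KO sham 3 was no longer the highest sham library. Gpnmb had an FPKM level of 0.27, 0.34 and 0.36 in KO I/R 1 to 3, against 0.11, 0.017 and 0.023 in KO sham 1 to 3. In WT I/R 1 to 3 the FPKM level of Gpnmb was 0.51, 0.84 and 0.36, against 0.056, 0.039 and 0 in WT sham 1 to 3. Cx3cr1 had an FPKM level of 0.062, 0 and 0.096 in KO I/R 1 to 3 and of 0.82, 0.13 and 0.23 in KO sham 1 to 3. Its FPKM level in WT I/R 1 to 3 was 0.055, 0.11 and 0.052, against 0.37, 0.49 and 0.30 in WT sham 1 to 3.

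The order of the FPKM levels was therefore Csf1r, then Gpnmb, then Cx3cr1 in every I/R library, and Csf1r, then Cx3cr1, then Gpnmb in every sham library. For KO I/R 2 the FPKM column is the version that gave the recovered reads. Its deposited counts were 405 for Csf1r, 12 for Gpnmb and 10 for Cx3cr1, so there Gpnmb and Cx3cr1 were near each other. The ratio of Csf1r to Gpnmb in FPKM was 5.19 to 6.66 in KO I/R (5.19 in KO I/R 2, from its FPKM column), against 75.7 to 509 in KO sham. The same ratio in WT I/R was 3.56 to 5.93, against 136 and 167 in WT sham 1 and 2, with no value in WT sham 3, where Gpnmb was listed at 0. These ratios use the gene lengths of the authors, and the lengths implied by their count and FPKM columns were 1.34 times the exonic length in GENCODE M21 for Csf1r, 1.72 times for Cx3cr1 and 1.15 times for Gpnmb.

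**Figure D2:**
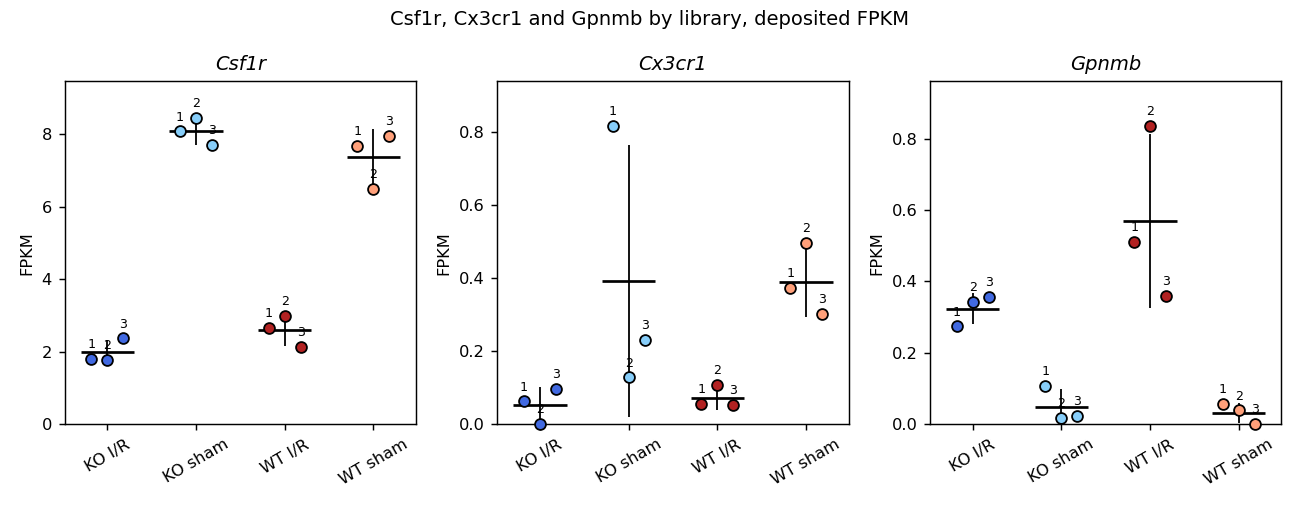
Deposited FPKM of Csf1r, Cx3cr1 and Gpnmb (1 panel each, y axis in FPKM, each panel with its own range) in the 12 libraries, numbered 1 to 3 within each group on the x axis. Horizontal bars are means and vertical bars SD over 3 libraries. Gpnmb exceeds Cx3cr1 in the I/R libraries, at 0.27 to 0.84 FPKM against 0 to 0.11 FPKM, and lies below it in the sham libraries.

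For the comparison of genotypes, KO kidneys were set against WT kidneys after sham surgery and after I/R, and an interaction term asked whether the I/R change differed between genotypes. These contrasts share libraries with those above. The Csf1r log2 fold change of KO sham over WT sham was 0.20 (95% interval -0.45 to 0.86), that of Cx3cr1 was -0.05 (-1.24 to 1.14) and that of Gpnmb was 0.54 (-1.41 to 2.48), with adjusted p of 0.939, 1.0 and 0.951 in that order (edgeR). For KO I/R over WT I/R the log2 fold change of Csf1r was 0.10 (-0.56 to 0.75), that of Cx3cr1 0.26 (-1.12 to 1.64) and that of Gpnmb -1.16 (-2.68 to 0.36), each with an adjusted p of 1 (edgeR). With the recovered reads the values for KO I/R over WT I/R were -0.36 for Csf1r, -0.44 for Cx3cr1 and -0.78 for Gpnmb, so the sign of Csf1r and Cx3cr1 turned with the version of 1 library. The intervals are wide and do not show that the genotypes act alike.

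The interaction, KO change minus WT change, was -0.11 for Csf1r (95% interval -1.03 to 0.82), 0.32 for Cx3cr1 (-1.50 to 2.13) and -1.70 for Gpnmb (-4.18 to 0.78) on the log2 scale, each with an adjusted p of 1.0 (edgeR). With the recovered reads it was -0.56 for Csf1r (-1.21 to 0.08), -0.38 for Cx3cr1 (-2.84 to 2.07) and -1.32 for Gpnmb (-3.61 to 0.97). The smaller Gpnmb rise in KO than in WT kidneys was thus not shown to differ. Over all genes, edgeR called 0% between KO sham and WT sham, 0% between the I/R groups of both genotypes and 0% for the interaction. At an unadjusted p under 0.05 there were 285, 140 and 265 genes in these contrasts, and DESeq2 called 22, 2 and 15.

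**Figure D3:**
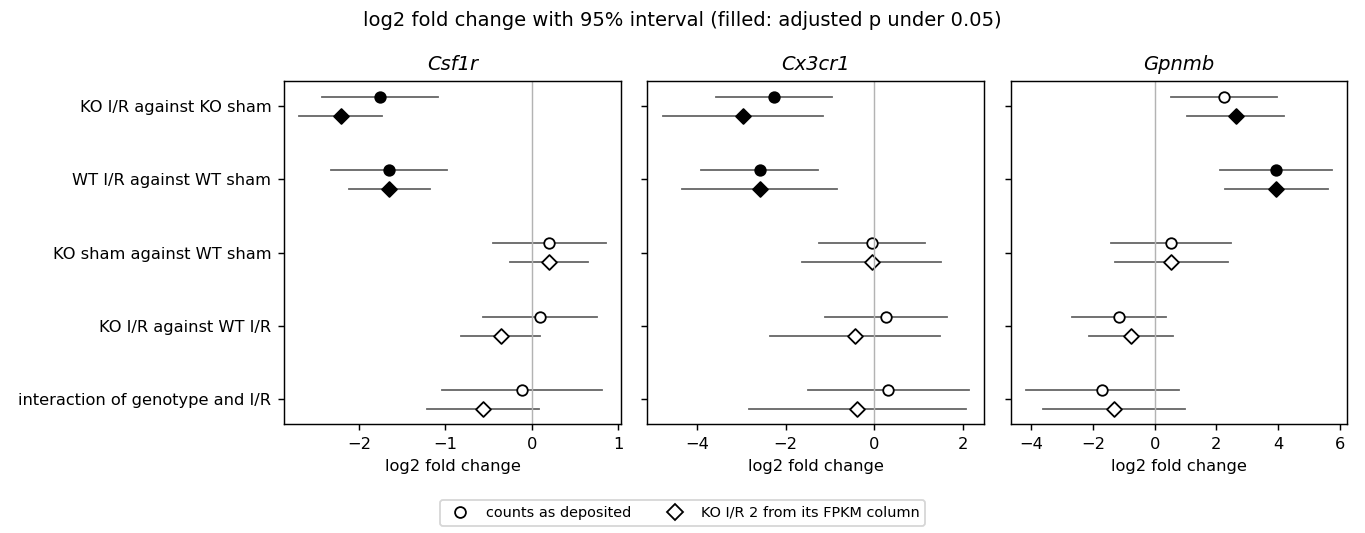
log2 fold change (x axis) of Csf1r, Cx3cr1 and Gpnmb (1 panel each) in the 5 contrasts (y axis), with 95% intervals as lines. Circles use the counts as deposited, diamonds the reads recovered for KO I/R 2, and filled symbols have an adjusted p under 0.05. Both versions agree in sign between I/R and sham, and all intervals of the genotype contrasts and the interaction cross 0.

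The wider set of resident macrophage genes was mixed. Of 36 genes listed, 11 were in the table and 10 were tested. Between KO I/R and KO sham 0 rose and 3 fell (1 and 5 with recovered reads), and between WT I/R and WT sham 1 rose and 4 fell. The median log2 fold change of the 10 was -0.92 in KO and -1.15 in WT, against -0.08 and -0.04 over all tested genes; the 8 without Csf1r and Cx3cr1 had medians of -0.38 in KO and -0.95 in WT. Mertk, a receptor for the uptake of dying cells, fell in both genotypes, by 1.33 in KO and by 1.30 in WT on the log2 scale (adjusted p = 0.0273 and 0.0318). Its WT call was lost without any 1 of the 6 WT libraries (adjusted p of 0.0592 to 0.12), and its KO call without KO sham 1 (0.0766) or KO sham 2 (0.0752).

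Among the other resident genes, Hpgds was the single one to rise with a call. Itgax, H2-Eb1 and Adgre1 had negative values in both genotypes, and C1qa and Ms4a7 had positive ones with the deposited counts. Hpgds, which makes prostaglandin D in blood-derived cells, rose in WT, by 3.61 on the log2 scale (adjusted p = 0.00424). In KO its log2 fold change was 1.51 (adjusted p = 0.113), and it passed the test with the recovered reads (2.33, adjusted p = 0.0233) and without KO sham 1 (2.73, adjusted p = 0.0159). H2-Eb1, a class II antigen-presenting chain, had -1.29 in KO and -1.16 in WT and missed the test in both with the deposited counts. It passed in both with the recovered reads (adjusted p = 0.00193 in KO and 0.0232 in WT) and without KO I/R 2 (0.00618 in KO and 0.0266 in WT). Itgax, an integrin chain of dendritic cells and macrophages, had -1.53 in KO (adjusted p = 0.155; -2.54 with recovered reads, adjusted p = 0.0239) and -1.13 in WT (adjusted p = 0.297). Adgre1, a surface receptor that marks mouse macrophages, had log2 fold changes of -0.21 in KO and -0.78 in WT, and C1qa, a complement subunit made by macrophages, had 0.62 in KO and 0.75 in WT; none of these passed the test. Ms4a7 had 0.57 in KO and 1.08 in WT and did not pass in either. With recovered reads the KO values of C1qa and Ms4a7 were -0.35 and -0.014. Itgax, H2-Eb1, Adgre1, C1qa and Ms4a7 were chosen for mention after their values were seen.

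Genes of recruited monocytes and macrophages were represented by 5 of 32 listed, of which 4 were tested. Between KO I/R and KO sham 2 rose and 0 fell, and between WT I/R and WT sham 3 rose and 0 fell. Itgam, an integrin chain of monocytes, macrophages and neutrophils, averaged 16.1 ± 8.79 CPM in KO I/R and 1.47 ± 0.58 CPM in KO sham, and 21.2 ± 9.77 CPM in WT I/R and 2.65 ± 0.81 CPM in WT sham (SD, n = 3 each). Its log2 fold change was 3.41 in KO and 2.99 in WT (adjusted p = 0.00265 and 0.00416, edgeR). S100a6, a calcium-binding protein of many injured cells, rose by 3.66 in KO and 4.7 in WT, and the KO value was 2.98 with the recovered reads. Ifitm3, the other WT riser, rose by 1.66 in WT (adjusted p = 0.0188, edgeR). That call was lost without WT I/R 2 (0.0668), WT sham 1 (0.0511), WT sham 2 (0.055) or WT sham 3 (0.074). In KO its log2 fold change was 0.84 (0.33 with recovered reads). It missed the test there with all libraries and passed without KO I/R 3 (adjusted p = 0.0463). The list's median was 2.85 in KO and 2.86 in WT.

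Of the lipid-laden and phagocytic macrophage genes, the list that holds Gpnmb, 13 of 36 were in the table and 12 were tested. Between KO I/R and KO sham 4 rose and 1 fell, and between WT I/R and WT sham 5 rose and 1 fell, Gpnmb included in WT. Msr1, a scavenger receptor for modified lipoprotein, stood at 10.6, 14.9 and 10.3 CPM in KO I/R 1 to 3, against 0.97, 1.74 and 1.07 CPM in KO sham 1 to 3. In WT I/R 1 to 3 it stood at 19.1, 12.1 and 15.7 CPM, against 1.69, 0.60 and 0.59 CPM in WT sham 1 to 3. The groups did not overlap, as for 35.3% of all tested genes in KO and 55.2% in WT. Msr1 rose by 3.21 in KO and 4.004 in WT on the log2 scale (adjusted p = 0.00103 and 0.000339, edgeR). With recovered reads KO I/R 2 stood at 5.51 CPM, the lowest of its group, and the KO value was 2.78. Without WT sham 1 the WT value was 4.66. Cstb, an inhibitor of lysosomal cathepsins, rose by 2.47 in KO and 2.46 in WT (adjusted p = 0.000129 and 0.000143).

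Apoc2, the apolipoprotein that activates lipoprotein lipase, had 26, 27 and 25 counts in WT I/R 1 to 3 and 0 in all 3 WT sham libraries, which makes it at least 24.7-fold higher in WT I/R taking 3 counts in the WT sham group as the floor. In KO I/R 1 to 3 Apoc2 had 21, 169 and 95 counts, against 8, 0 and 2 in KO sham 1 to 3, and it rose by 4.96 on the log2 scale (adjusted p = 0.00743; 3.67 with recovered reads, 4.03 without KO I/R 2, 6.33 without KO sham 1). Lpl, the lipase itself, went against the list: it averaged 501 ± 169 CPM in KO I/R and 1974 ± 726 CPM in KO sham, and 322 ± 98.8 CPM in WT I/R and 2243 ± 1028 CPM in WT sham (SD, n = 3 each). Lpl fell by 1.98 in KO and by 2.80 in WT (adjusted p = 0.00757 and 0.00154). Lgals1, a galectin, rose in WT by 2.47 (adjusted p = 0.0117), and its KO value of 1.87 (adjusted p = 0.0332) was 0.93 with recovered reads (adjusted p = 0.0625) and missed the threshold without KO I/R 2 (0.78, adjusted p = 0.189), without KO sham 1 (1.64, adjusted p = 0.0985) and without KO sham 2 (1.66, adjusted p = 0.105). The median log2 fold change of the 12 tested genes was 1.15 in KO and 1.19 in WT, and 0.66 and 0.62 without Gpnmb; with Apoc2 at its bound the WT median was also 1.19.

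**Figure D4:**
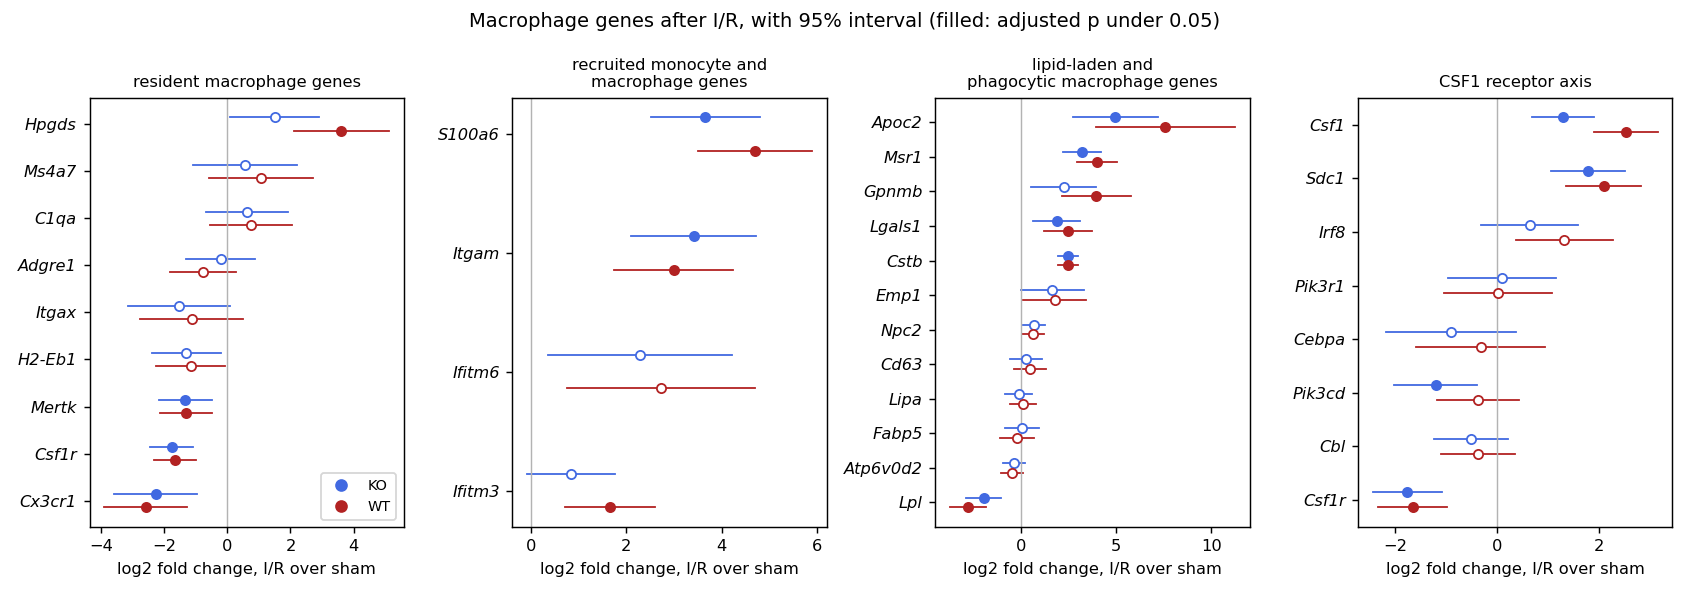
log2 fold change of I/R over sham (x axis) for the tested genes of 4 lists (1 panel each, 1 gene of the resident list not drawn), KO in blue above WT in red, with 95% intervals as lines and filled points for an adjusted p under 0.05. Csf1r and Cx3cr1 lie at the low end of the resident list (-1.76 and -2.27 in KO), and Gpnmb lies among the risers of the lipid-laden list with Msr1 and Apoc2, while Lpl lies at the low end of that list.

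Around the CSF1 receptor, the ligand gene Csf1 and the receptor gene moved in opposite directions. Il34, the gene of the other ligand named above, was not in the table. Csf1 stood at 85.7, 125 and 107 CPM in KO I/R 1 to 3, against 51.1, 28.2 and 50.7 CPM in KO sham 1 to 3. In WT I/R 1 to 3 Csf1 stood at 155, 153 and 159 CPM, against 19.4, 30.8 and 31.3 CPM in WT sham 1 to 3. All I/R libraries were above all sham libraries. Within a genotype, I/R and sham did not overlap for 35.3% of all tested genes in KO and 55.2% in WT. Csf1 rose by 1.29 in KO and 2.52 in WT on the log2 scale (adjusted p = 0.00757 and 0.000294, edgeR). The KO value was 1.92 without KO sham 1 and 3. Of the 26 genes of this axis 9 were in the table and 8 were tested: 2 rose and 2 fell in KO, and 2 rose and 1 fell in WT, with medians of -0.21 and -0.15. Sdc1, a cell-surface proteoglycan listed here as a binder of growth factors and made by injured tubules too, rose by 1.79 in KO and 2.08 in WT (adjusted p = 0.00352 and 0.00169). Pik3cd, a leukocyte lipid kinase, fell by 1.20 in KO (adjusted p = 0.0367) and had -0.37 in WT (adjusted p = 0.502). Its KO call was lost in 9 of the 12 settings that left out a library, at adjusted p of 0.0516 to 0.106.

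Around Cx3cr1, 3 of 8 listed genes were tested and Cx3cr1 was the single one to pass. Its ligand gene Cx3cl1 had log2 fold changes of 0.37 in KO and 0.02 in WT (adjusted p = 0.702 and 0.987, edgeR). The WT I/R counts of Cx3cl1 were 1837, 152 and 2308, so WT I/R 2 lay far below the other libraries of its group. Of the MiT/TFE lysosome genes and GPNMB partners 12 of 36 were in the table and all 12 were tested: 0 rose and 1 fell in KO (1 and 1 with recovered reads, Gpnmb the riser), and 1 rose and 2 fell in WT, where Gpnmb was the riser. Tfeb, a transcription factor of lysosome genes, had 0.72 in KO and 0.49 in WT, and Tfec, its relative in macrophages, had 0.26 in KO and -0.36 in WT, and none of these passed the test. Fnip1, a partner of folliculin in lysosomal nutrient sensing, fell by 1.03 in KO and by 1.10 in WT (adjusted p = 0.0233 and 0.0196). Its calls were lost without 1 of several libraries, at adjusted p of 0.0562 to 0.0774 in KO (KO I/R 1, KO I/R 2 or KO sham 1) and 0.0626 to 0.0809 in WT (each WT library except WT sham 2). Tfeb and Tfec were chosen for mention after their values were seen.

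Markers of other cells moved in the same libraries, and their part in the changes of the 3 genes was not tested. Of 16 neutrophil genes 6 were in the table, and their summed level was 5670 to 18100 table CPM in KO I/R, 8.46 to 148 in KO sham, 6471 to 8372 in WT I/R and 10.999 to 25.9 in WT sham. All 3 tested, Lcn2, Mmp8 and Csf3r, rose in both genotypes. Lcn2 is also a tubular injury gene, is summed in that list too, and made up nearly all of the neutrophil sums in I/R. It had 27116 to 85146 counts in KO I/R and 35121 to 43332 in WT I/R. Csf3r had 86 to 136 and 118 to 171 counts, and Mmp8 had 14 to 35 and 11 to 45, in the same order. The I/R sums therefore mostly follow Lcn2 and say little on neutrophils. The top of the KO I/R sums and the 85146 counts of Lcn2 belong to KO I/R 2 as deposited, where Lcn2 had 44882 recovered reads. For the 3 tested genes the KO I/R 2 sum in TMM-scaled CPM was 20522 as deposited and 8540 with recovered reads. The KO call of Csf3r, the receptor for the neutrophil growth factor G-CSF, was lost without KO I/R 2 (adjusted p = 0.0684), KO sham 1 (0.0541) or KO sham 2 (0.0641). Camp and Mpo were at 0 in both sham groups and had only 0 to 3 counts per library after I/R. Of 21 lymphocyte and NK genes 9 were in the table, with summed levels of 2.29 to 5.06 table CPM in KO I/R, 16.5 to 29.5 in KO sham, 3.85 to 5.57 in WT I/R and 11.97 to 22.2 in WT sham; of 5 tested 0 rose and 4 fell in KO, and 0 rose and 2 fell in WT. Of these, Cd8a in WT was lost without any 1 of the 6 WT libraries (adjusted p of 0.0607 to 0.129), and in KO Cd4 was lost without KO sham 1 (0.054), Il2rb without KO I/R 1 (0.0505) or KO I/R 3 (0.0515) and Cd79a without KO I/R 2, KO I/R 3 or KO sham 1 (0.0728 to 0.0752). Of 15 tubular injury genes 6 were in the table and all 6 rose in both genotypes, with summed levels of 23982 to 38195 table CPM in KO I/R, 462 to 1557 in KO sham, 22178 to 30705 in WT I/R and 888 to 1455 in WT sham. KO I/R 2 as deposited was the highest of these. In TMM-scaled CPM its tubular injury sum was 43312 as deposited and 29712 with recovered reads. The 8 kidney tubule and glomerulus genes had 0 risers and 4 fallers in each genotype.

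The lineage-shared leukocyte genes were mixed. Of the 10 lineage-shared leukocyte genes 4 were in the table and tested: 1 rose and 0 fell in KO, and 0 rose and 0 fell in WT. The KO riser was Cd53, a leukocyte tetraspanin, and its call was lost without KO I/R 1 (adjusted p = 0.0682) and without KO sham 1 and 3 (0.139). Cd48, a surface protein of most leukocytes, had -1.66 in KO (adjusted p = 0.0616; 0.039 without KO sham 2) and -0.20 in WT, and was chosen for mention after its values were seen. The list's summed level was 119 to 155 table CPM in KO I/R, 79.7 to 116 in KO sham, 136 to 161 in WT I/R and 63.3 to 97.9 in WT sham. In TMM-scaled CPM the sums were 105 to 176 in KO I/R and 76.6 to 129 in KO sham, and 129 to 153 in WT I/R and 58.2 to 104 in WT sham. The 176 is KO I/R 2 as deposited, at 120 with recovered reads. The I/R libraries thus lay above the sham libraries on both scales in WT, and in KO on the scale of table CPM, while in TMM-scaled CPM the KO groups overlapped, with KO sham 3, the library rich in mitochondrial counts, above KO I/R 3. The 2 dendritic cell genes tested, of 14 listed and 3 in the table, did not pass in either genotype, with a summed level of 6.46 to 8.91 table CPM in KO I/R, 6.24 to 10.01 in KO sham, 4.77 to 10.2 in WT I/R and 8.05 to 9.40 in WT sham. Of the endothelial and fibroblast genes 3 of 15 were in the table and tested, namely Col1a1, Pdgfrb and Postn. No listed endothelial gene was among them, so the list covers fibroblast genes only. In KO 1 rose and 0 fell, and in WT 3 rose and 0 fell. The WT call of Postn was lost without WT I/R 2 (adjusted p = 0.116, edgeR), WT sham 1 (0.0751), WT sham 2 (0.0684) or WT sham 3 (0.07). The KO riser was Col1a1, a collagen chain (adjusted p = 0.0477), and it was lost with the recovered reads (0.0985) and in 10 of the 12 settings that left out a library. Of the 11 melanocyte and osteoclast genes, listed for the other cells named above as making Gpnmb, 3 were in the table. No osteoclast gene of the list was among them, and the 3 were the melanocyte genes Mlana, Pmel and Tyr. Their summed level was 2.08 to 2.55 table CPM in KO I/R, 1.16 to 3.14 in KO sham, 2.02 to 3.27 in WT I/R and 2.16 to 3.20 in WT sham, Tyr was at 0 in all 4 groups, and Mlana was at 0 in all groups but WT I/R. Pmel, the single one tested, had 12, 12 and 10 counts in KO I/R and 17, 12 and 6 in KO sham. In WT it had 17, 10 and 11 counts in WT I/R and 11, 17 and 13 in WT sham.

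The stability of the 3 I/R changes against single libraries differed. With 1 library left out, the log2 fold change of Csf1r ranged from -2.17 to -1.53 in KO and from -1.76 to -1.53 in WT. That of Cx3cr1 ranged from -2.69 to -1.46 in KO and from -3.00 to -2.35 in WT, and that of Gpnmb from 1.83 to 3.27 in KO and from 3.36 to 4.63 in WT. The KO ranges of Cx3cr1 and Gpnmb were both set at one end by leaving out KO sham 1, which held the highest sham level of both genes.

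**Figure D5:**
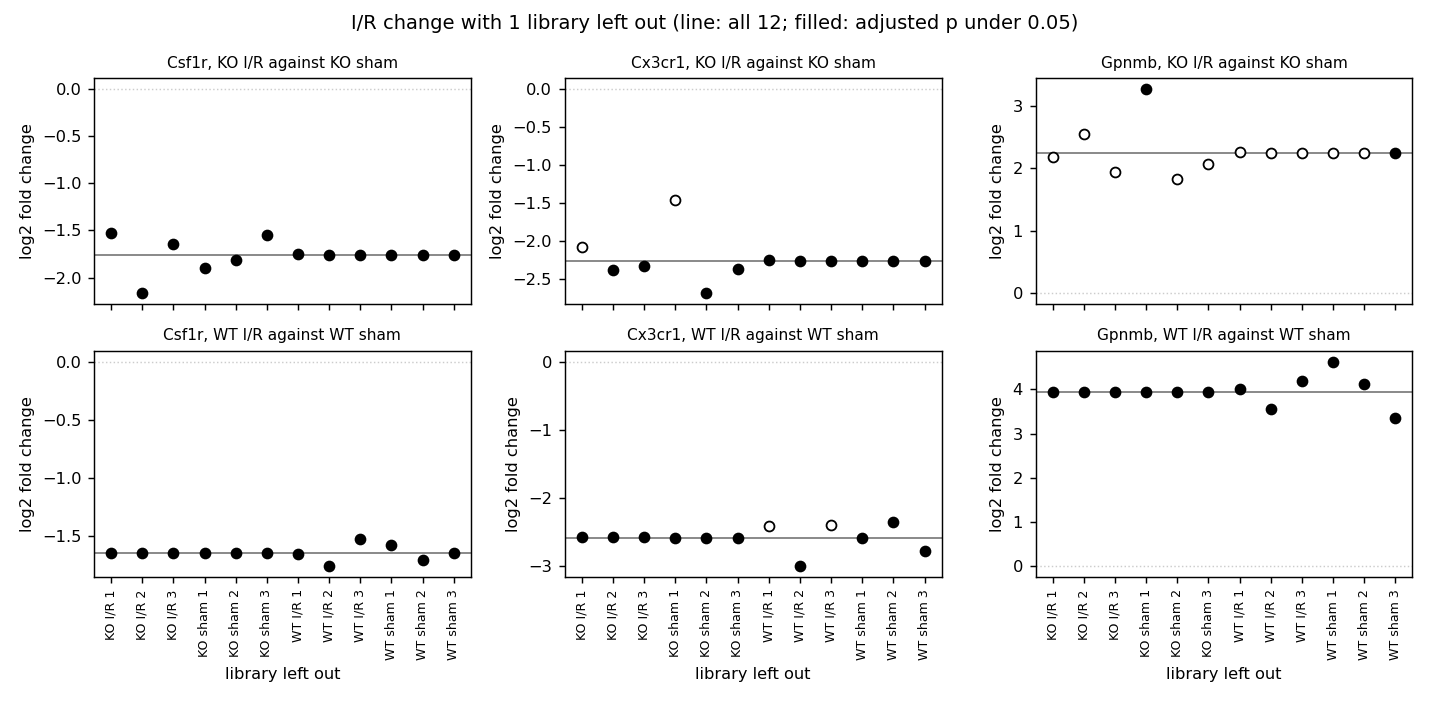
log2 fold change of I/R over sham (y axis, each panel with its own range) for each gene with the library named on the x axis left out, KO in the upper row and WT in the lower row. The line is the value with all 12 libraries, and filled points have an adjusted p under 0.05. Csf1r is filled throughout, Gpnmb is filled throughout in WT, and leaving out KO sham 1 moves Cx3cr1 in KO to -1.46 and Gpnmb in KO to 3.27.

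As a description of their pattern, the 5 genes most like each member were ranked by Pearson's r of log2 CPM from the deposited counts. The 12 libraries share the 4 groups and thus the I/R difference. For Csf1r they were Haao, an enzyme of tryptophan breakdown (r = 0.97), Efcab12, Lrpap1, a chaperone of the LDL receptor family, Dmac2, an assembly factor of respiratory complex I, and Fggy, a carbohydrate kinase. For Cx3cr1 they were Tkfc, an enzyme of fructose use (r = 0.93), Ifit1bl2, Ceacam2, Rnf32 and Hsd17b14, a hydroxysteroid dehydrogenase. For Gpnmb they were Ess2 (r = 0.94), Aldh1a2, which makes retinoic acid, Llgl2, a cell polarity gene, Cldn14, a claudin of tight junctions, and Lpcat2, a phospholipid enzyme. Once each group was centred on its mean, the r of these 15 genes with their member lay between 0.44 and 0.80.

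Between the members themselves, r was 0.83 for Csf1r and Cx3cr1, -0.85 for Csf1r and Gpnmb and -0.64 for Cx3cr1 and Gpnmb over the 12 libraries. After centring within groups these were 0.12, -0.27 and 0.66 in the same order. Within groups, therefore, Cx3cr1 and Gpnmb as deposited tended to be high in the same libraries, such as KO sham 1 and WT I/R 2, although I/R moved them in opposite directions. With recovered reads KO I/R 2 went the other way. It had the lowest Cx3cr1 (0 CPM) and the highest Gpnmb (8.36 CPM) of its group, and r was not computed for that version. Both genes are low in counts in at least 1 of the conditions, and all points share the scaling of their library.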

How the data were processed

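Total RNA of kidney was isolated with an RNeasy kit and sequenced as paired-end TruSeq libraries, per the labels' protocols. The authors deposited whole-number read counts and FPKM per gene side by side, per the file headers; HISAT2 and StringTie are named in the submitters' processing notes, without versions. The sources used here do not give the build or counting rules, and 98.8% of loci equal those of GENCODE M21 (GRCm38).

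Counts were tested with edgeR 4.0.16 (R 4.3.3): filterByExpr (minimum count 10, total 15), TMM factors, 1 quasi-likelihood model of 4 groups, and Benjamini-Hochberg adjustment over 5048 genes, with an adjusted p under 0.05 called. SE and 95% intervals come from the F statistic; the common biological coefficient of variation was 0.375. Library sizes were totals over tested genes (4673454 to 5450758), and the table held 29.6% to 31.6% of the whole-library totals in 11 libraries, so other genes are not analysed here. The fit was tested on simulated data. For KO I/R 2, reads were recovered from FPKM; 116 genes without a usable length were set to 0 there. Summed list levels, called table CPM, are scaled to the table total without TMM factors. Alternatives were RLE factors, 2 other filters, a robust spread, DESeq2 1.42.0, only the groups compared, the replicate number as a block, libraries left out, whole-library totals, and limma 3.58.1 on log2(FPKM + 0.1 or 1).

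The members and 14 gene lists were chosen with earlier results of these data known. Named genes are the members, Lrrk2, list genes that passed in an I/R contrast (or the 2 of smallest p where none did) and the 5 genes most like each member; others are marked. The values of 1 list gene are not reported here, and it stays in the list counts and medians.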

Additional observations from a re-analysis of the deposited data

How the results depend on the processing

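Each of the 15 results (3 genes in 5 contrasts) was recomputed under 12 settings that leave out 1 library and up to 15 others. Csf1r kept its call in both I/R contrasts under all 27. The settings with whole-library totals and recovered reads together, the list counts under each setting and the TMM-scaled list sums were added after seeing the data.

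Values are log2 fold changes in the order of the settings named. For Cx3cr1 in KO I/R against KO sham, the call was lost with only the groups compared (-2.26), without KO sham 1 and 3 (-0.59; -1.28 with recovered reads), and in limma on log2(FPKM + 1) (-0.37) and unfiltered log2(FPKM + 0.1) (-1.48). For Cx3cr1 in WT I/R against WT sham it was lost with whole-library totals and recovered reads (-2.43), and in the same limma fits (-0.37 and -1.51). Gpnmb in KO I/R against KO sham passed with no filter (2.29), DESeq2 (2.28), recovered reads (2.62), recovered reads without KO sham 1 and 3 (4.22), recovered reads with whole-library totals (2.69) and limma (1.56, 0.34 with a pseudocount of 1, 1.56 unfiltered). The cause was not tested, except that recovered reads change KO I/R 2 alone and a pseudocount of 1 exceeds all FPKM of Cx3cr1 and Gpnmb.

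Signs turned only where no call was made. Csf1r in KO I/R over WT I/R was -0.36 with recovered reads, -0.37 with these and without KO sham 1 and 3, -0.11 with whole-library totals, -0.39 with both, and -0.37, -0.27 and -0.37 in limma. Cx3cr1 there was -0.44, -0.44 and -0.45 with the 3 settings that use recovered reads, and -0.21, -0.026 and -0.21 in limma. Cx3cr1 in KO sham over WT sham was 0.0052 with whole-library totals and 0.0054 with recovered reads too. Gpnmb there was -1.04 without KO sham 1 and 3 and -1.03 with recovered reads too. The interaction of Cx3cr1 was -0.38 with recovered reads and -0.45 with whole-library totals too, and that of Gpnmb 0.25 with recovered reads and without KO sham 1 and 3. For Gpnmb in KO sham over WT sham, the fit of those groups alone gave no value, since the gene did not pass its filter.

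With 1 library left out, Csf1r ranged from -0.0046 to 0.34 in KO sham over WT sham, -0.32 to 0.32 in KO I/R over WT I/R and -0.52 to 0.12 for the interaction. Cx3cr1 ranged from -0.86 to 0.37, 0.08 to 0.69 and -0.11 to 1.117, and Gpnmb from -0.49 to 1.22, -1.48 to -0.78 and -2.39 to -0.67, in the same order. In KO I/R against KO sham the ranges were -2.17 to -1.53 for Csf1r, -2.69 to -1.46 for Cx3cr1 and 1.83 to 3.27 for Gpnmb, and in WT I/R against WT sham -1.76 to -1.53, -3.00 to -2.35 and 3.36 to 4.63.

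The number of genes called in KO I/R against KO sham was 1185, and 364 with only those groups and 555 without KO sham 1 and 3. In WT I/R against WT sham it was 1057, 1995 with only those groups and 2182 with recovered reads and without KO sham 1 and 3; with 1 library left out it was 527 to 1425. With the replicate block the counts were 1134 and 1031, and the values for KO I/R against KO sham were -1.80 for Csf1r, -2.20 for Cx3cr1 and 2.42 for Gpnmb (adjusted p = 0.0649). The block changed no call of the 3 genes. Deviations of same-numbered libraries from their group means had correlations of -0.37 to 0.25, with both signs. With 3 libraries per group these values cannot settle whether the numbers pair the libraries. Depth limits Cx3cr1 after I/R and Gpnmb after sham surgery, which rest on 0 to 14 counts per library.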
